A study of Rattus norvegicus with 33 samples.

Results

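Proteasome genes were followed in the soleus of 33 female Wistar rats, on 33 arrays in 11 groups of 3. They were chosen by symbol, as genes named Psma, Psmb, Psmc, Psmd or Psme and a number, and 44 of the 14506 genes with a row of their own carried such a symbol. Of these 44, 41 encode subunits, activators or assembly chaperones, and 3 other symbol matches were kept apart. These were Psma3l, a near copy of an alpha subunit gene, and Psmc3ip and Psme3ip1, whose proteins bind proteasome components. The 41 were 6 alpha ring genes, 7 beta ring genes, 4 immunoproteasome genes, 9 genes of the base, 8 of the lid, 4 activators and 3 chaperones that assemble the base. Psma3 was measured only in a row shared with Psma3l and was left out, and 7 members had 2 rows, of which the brighter was used.

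In the spinal cord injury experiment, SCI rats had a complete transection between the ninth and the tenth thoracic vertebra at 9 weeks of age, and a stimulator operation with tenotomy of the left gastrocnemius 14 weeks later. SCI-ES rats received electrical stimulation (ES) of the paralyzed muscle for 1 hour a day from 16 weeks after transection, over 1, 3 or 7 days, each as a group of its own. The SCI group had every operation but no stimulator and was taken 21 days after it, while Sham-SCI rats had a laminectomy alone, without tenotomy. In the overload experiment, gastrocnemius ablation (GA) cut the distal insertion of the muscle in intact rats of 22 to 23 weeks, and Sham-GA rats had the same operation without the cut, with soleus taken after 1, 3 or 7 days. Each day is a different set of animals, so the day and the cohort cannot be told apart. Both ES groups of 1 and 3 days were taken sooner after surgery than SCI, and the same 3 SCI arrays serve all ES comparisons and the comparison with Sham-SCI.

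The proteasome degrades proteins that carry ubiquitin chains. Its core particle is a barrel of alpha rings, which gate the entrance, and beta rings, which hold the catalytic sites of Psmb5, Psmb6 and Psmb7. The regulatory particle sits on the barrel. Its base carries the Psmc ATPases that unfold substrates, and its lid carries Psmd14, which removes ubiquitin. Interferon gamma induces Psmb8, Psmb9 and Psmb10, which take the place of the catalytic subunits to form the immunoproteasome, and the activators Psme1 and Psme2. In skeletal muscle the proteasome breaks down myofibrillar proteins during atrophy and also clears damaged proteins when muscle is reloaded.

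All values are log2 array values. Over the 33 arrays they ranged from 2.10 to 14.26, with array medians of 6.45 to 6.54. The array Sham-GA 3 days replicate 2 lay farthest from the rest (median distance 0.255, against 0.109 for the nearest). Sham-GA 1 day replicate 1 came next, at 0.238. Of the marker lists, that of muscle fibers, with Acta1 and Ckm, had a mean of 12.97 to 13.60 over the arrays. The mean was 8.93 to 11.69 for fibroblasts, 7.18 to 10.15 for macrophages and 4.90 to 7.18 for neutrophils. It was 5.67 to 6.82 for T cells and 5.36 to 5.87 for B cells. Every one of the 44 proteasome genes passed the filter on low values. A row's level depends on its probes, so levels are given as ranges and neither lists nor genes are ranked by them. Mean values ran from 8.83 (Psma5) to 10.47 (Psma1) in the alpha ring, from 10.52 (Psmb1) to 11.52 (Psmb7) in the beta ring, from 8.46 (Psmc5) to 11.57 (Psmd2) in the base and from 9.57 (Psmd13) to 10.87 (Psmd6) in the lid. The immunoproteasome rows ran from 4.62 for Psmb11, a subunit known from the thymus, to 8.16 for Psmb9, the activators from 10.02 (Psme1) to 11.23 (Psme4), and the base chaperones from 7.43 (Psmd10) to 8.63 (Psmd5). The mean of Psmb11 lay below every array median, and Psmb11 counts in each value given for the immunoproteasome class.

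Promoter windows of 300 bases, 250 before and 50 from the RefSeq start on (GRCr8), were at hand for 38 of the 44 genes. They were searched on both strands for 9 motifs. TGACNNNGC, the core of the element that Nrf1 and Nrf2 bind, was in 7 of the 38 windows, against 12.1% of all 33469 windows. By class it was in 3 of 7 beta ring windows, 1 of 9 in the base, 1 of 5 in the lid and 0 of 5 alpha ring windows. The interferon-stimulated response element, 2 runs of GAAA with 2 bases between them, was in 6, against 3.92%, and in 2 of the 3 immunoproteasome windows. CCGGAAG, bound by ETS factors, was in 14, against 8.75%, with 4 of 9 in the base and 3 of 5 in the lid. GGGCGG, the GC box, was in 26, against 33.1%, and in 5 of 5 alpha ring windows. The remaining motifs were TGAGNNNGC in 9 windows (17.2% of all), CCAAT in 20 (37.5%), GGANTTCC in 5 (4.59%), 2 runs of GGAA with 3 bases between them in 3 (2.91%) and the heat shock element, TTC, GAA and TTC with 2 bases between them, in 0 (0.798%). A match is a run of letters and not a site. Windows are shown, with the motif in capitals, for 3 regulatory particle genes that were lower at 7 days than at 1 day in Sham-GA and for 2 immunoproteasome genes. Psmd1 (chr9:94157721-94158020, plus strand) held TGACNNNGC at both capital runs, Psmd3 (chr10:84139688-84139987, plus strand) held it on the other strand, and Psmd11 (chr10:65932093-65932392, plus strand) held CCGGAAG on the other strand. The Psmd3 and Psmd11 windows lie inside the annotated spans of their genes. These begin farther upstream, at position 84139249 for Psmd3 and 65923669 for Psmd11. Psmb8 (chr20:4656982-4657281, minus strand) held the interferon element on the other strand, and Psmb10 (chr19:50743243-50743542, minus strand) held it at 2 places. No match was in the Psmb9 window, which shares 44 bases with that of Tap1, the peptide transporter gene that runs the other way.
Psmd1: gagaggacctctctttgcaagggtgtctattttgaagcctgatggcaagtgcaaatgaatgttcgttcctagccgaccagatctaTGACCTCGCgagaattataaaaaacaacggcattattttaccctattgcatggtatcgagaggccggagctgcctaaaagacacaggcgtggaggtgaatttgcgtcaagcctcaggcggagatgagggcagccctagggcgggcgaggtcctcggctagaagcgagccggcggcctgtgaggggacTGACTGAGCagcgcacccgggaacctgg
Psmd3: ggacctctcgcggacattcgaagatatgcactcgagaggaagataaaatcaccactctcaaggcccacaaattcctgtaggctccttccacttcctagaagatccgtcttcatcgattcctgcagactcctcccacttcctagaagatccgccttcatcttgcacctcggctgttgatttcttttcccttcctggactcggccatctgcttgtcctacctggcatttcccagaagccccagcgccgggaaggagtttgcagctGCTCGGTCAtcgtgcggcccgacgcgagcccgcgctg
Psmd11: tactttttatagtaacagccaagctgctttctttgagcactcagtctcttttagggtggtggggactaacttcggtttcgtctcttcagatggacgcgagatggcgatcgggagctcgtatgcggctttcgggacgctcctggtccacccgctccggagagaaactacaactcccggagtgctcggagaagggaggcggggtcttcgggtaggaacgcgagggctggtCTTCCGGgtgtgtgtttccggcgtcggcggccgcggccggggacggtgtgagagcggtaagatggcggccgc
Psmb8: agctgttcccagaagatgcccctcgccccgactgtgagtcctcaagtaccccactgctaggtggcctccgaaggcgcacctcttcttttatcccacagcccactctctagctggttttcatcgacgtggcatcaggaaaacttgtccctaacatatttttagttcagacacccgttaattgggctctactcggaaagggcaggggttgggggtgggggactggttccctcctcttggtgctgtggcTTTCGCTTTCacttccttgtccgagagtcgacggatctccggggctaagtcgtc
Psmb10: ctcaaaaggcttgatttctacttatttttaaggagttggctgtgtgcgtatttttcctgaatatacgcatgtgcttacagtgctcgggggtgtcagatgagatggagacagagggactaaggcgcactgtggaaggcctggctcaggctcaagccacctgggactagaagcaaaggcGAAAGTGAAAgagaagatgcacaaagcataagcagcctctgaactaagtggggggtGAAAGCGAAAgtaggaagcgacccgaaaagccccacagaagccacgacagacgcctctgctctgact

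**Figure D1:**
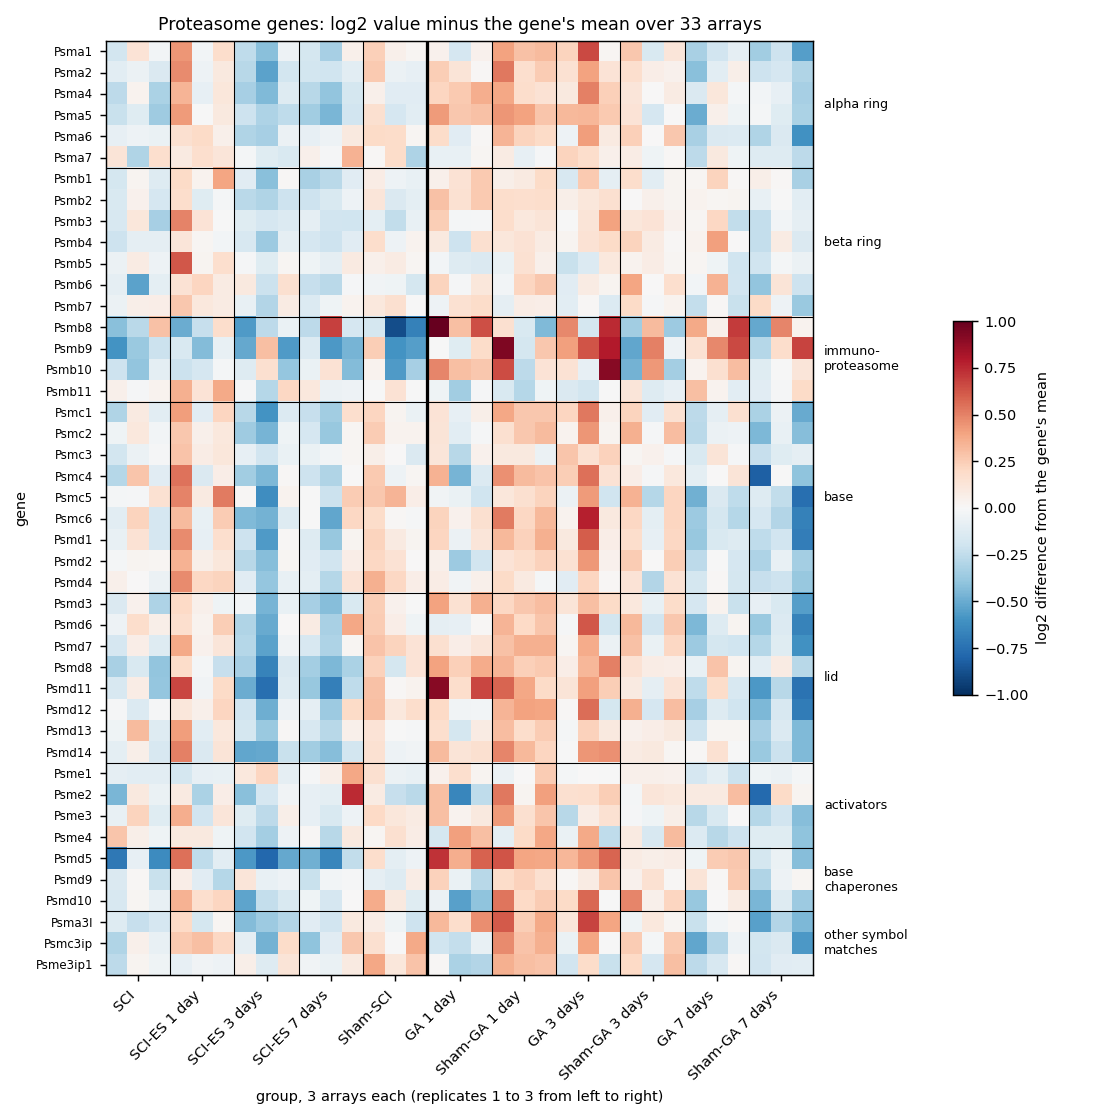
Heatmap of the 44 genes, ordered by class, over the 33 arrays in their 11 groups, as the log2 difference from each gene's mean over all arrays, with colours that end at 1 in either direction. Lid, base and alpha ring rows are mostly blue, below their mean, on the 3 Sham-GA 7 days arrays, and Psmb8, Psmb9 and Psmb10 vary apart from them.

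The first comparison asks how proteasome transcripts in SCI soleus differed from those in Sham-SCI. Only SCI rats had the later operation with tenotomy, so paralysis and that surgery cannot be told apart here. In SCI soleus 6 of the 44 genes were above their Sham-SCI mean, where 46.2% of all genes were, the median log2 difference was -0.12 (all genes, -0.02), and none passed the test. A gene passed at an adjusted p under 0.05, by limma with Benjamini-Hochberg adjustment over all 14456 genes tested. Over all genes 0.47% passed. An unadjusted p under 0.05 was reached by 3 of the 44, against 14.6% of all genes. The largest differences were in Psmd5, a chaperone that holds the base ATPases before assembly, and in the inducible subunit Psmb8 (log2 difference 0.45, SE 0.278, adjusted p = 0.495). Psmd5 read 7.91, 8.54 and 8.00 in SCI, against 8.80, 8.53 and 8.57 in Sham-SCI (log2 difference -0.48, SE 0.207, adjusted p = 0.305), and 1 SCI array overlapped the Sham-SCI range. The lid had a median of -0.24, the lowest of the classes of subunits. The 3 SCI arrays were all lower than every Sham-SCI array in 7 of the 44 genes (13.1% of all genes) and all higher in 0 (9.14%). The 95% interval of such a difference had a median half-width of 0.297 on the log2 scale, or 1.23 fold, and 0.20 to 0.60 over the genes. At 3 arrays per group a difference smaller than its gene's half-width was not told from 0. These intervals are not adjusted for the number of genes tested, and larger differences, such as that of Psmd5, did not pass either. The fibroblast marker list lay at -0.11 to 0.33 from its genes' medians in SCI, against -1.51 to -1.02 in Sham-SCI. The fiber marker list was also apart, at -0.30 to -0.14 in SCI, against 0.02 to 0.14 in Sham-SCI, with 3 of its 8 genes above 0 and none passed. The fiber list includes Myh7, a slow-twitch gene that the paper found reduced after SCI by qPCR. Whether the fiber list moved by a change of fiber type was not tested. The part of either list in these values was not tested. In bulk muscle, fewer cells of a type and less RNA per cell cannot be told apart.

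Stimulation of the paralyzed muscle was compared with SCI at each day. After 1 day of ES 41 of 44 genes were above SCI, with a median of 0.20, where 49.1% of all genes were above it. After 3 days 6 were above (48.3% of all genes), with a median of -0.16, and after 7 days 15 were (51.9%), with a median of -0.04. None passed on any day by limma, as over all genes (0% on each day). An unadjusted p under 0.05 was reached by 12 of the 44 at 1 day (7.28% of all genes), 3 at 3 days (3.07%) and 0 at 7 days (2.84%). All 3 arrays of ES for 1 day lay above all 3 SCI arrays in 14 genes, against 6.02% of all genes. Among them was Psmb6, the caspase-like catalytic subunit, which read 10.94, 11.01 and 10.87 after 1 day of ES, against 10.70, 10.26 and 10.69 in SCI (log2 difference 0.39, SE 0.136, adjusted p = 0.631). Psmd11, a scaffold subunit of the lid, read 11.01, 10.31 and 10.53 after 1 day, against 10.18, 10.41 and 9.95 in SCI (log2 difference 0.44, SE 0.201, adjusted p = 0.684), and the groups overlapped. Neutrophil markers lay at 0.01 to 0.82 after 1 day of ES, against -0.26 to -0.05 in SCI, and endothelial markers at -0.83 to 0.09, against -0.11 to 0.44, and their part was not tested. The lowest adjusted p of the 44 at 1 day was 0.614, for Psma5 of the alpha ring (log2 difference 0.40). SCI-ES 1 day replicate 1 was the highest of all 33 arrays for 3 of 7 beta ring genes, 3 of 8 lid genes and 2 of 9 base genes. The base mean lay at -0.004 to 0.39 from its genes' medians after 1 day of ES, against -0.12 to 0.08 in SCI, an overlap. Many of the genes vary together among animals, as given below, so a count of genes is not one of independent results. Set against Sham-SCI instead, SCI-ES at 7 days had 6 of 44 genes above (47.4% of all genes), with a median of -0.20. All 3 arrays were below all 3 of Sham-SCI in 14 of the 44 genes (12.5% of all genes), 5 of the 8 lid genes among them. None passed (0.796% of all genes did), 12 had an unadjusted p under 0.05 (14.8% of all genes), and the lowest adjusted p was 0.196, for the lid gene Psmd3 (-0.40). The largest differences there were in Psmb8 (0.66, adjusted p = 0.287) and Psmd11 (-0.55, adjusted p = 0.217).

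Overload by gastrocnemius ablation was compared with its sham operation on the same day. The Sham-GA arrays of 1 and 7 days used here also serve the comparison between days in Sham-GA given below, so these results are not independent. At 1 day 13 of 44 genes were above Sham-GA (48.2% of all genes), with a median of -0.14, at 3 days 29 were (44.8%), with a median of 0.06, and at 7 days 40 were (50.2%), with a median of 0.16. None passed by limma on any day, where 0.0554% of all genes passed at 1 day, 0% at 3 days and 0% at 7 days. An unadjusted p under 0.05 was reached by 8 of the 44 at 1 day (13.7% of all genes), 4 at 3 days (16.5%) and 5 at 7 days (2.63%). All 9 base genes were below Sham-GA at 1 day (median -0.24). All 3 GA arrays lay below all 3 Sham-GA arrays in 14 of the 44 genes at 1 day, against 11.1% of all genes. Psmd10, the base chaperone also known as gankyrin, was 1 of them and read 7.37, 6.89 and 7.02 in GA, against 7.96, 7.63 and 7.68 in Sham-GA at 1 day (log2 difference -0.66, SE 0.18, adjusted p = 0.156). At 7 days the largest difference was in Psmd11, at 10.09, 10.53 and 10.18 in GA against 9.77, 10.07 and 9.61 in Sham-GA (log2 difference 0.45, SE 0.18, adjusted p = 0.999). Averaged over the 3 days, the GA effect had a median of 0.03 over the 44 genes, with 27 above 0 (45.8% of all genes), 0 passed (0% of all genes) and 7 at an unadjusted p under 0.05 (19.3%). It was largest in Psmb8 (log2 difference 0.55, SE 0.17, adjusted p = 0.17), and Psmd5 had the lowest adjusted p (log2 difference 0.28, SE 0.0742, adjusted p = 0.166). This count rested on single sham arrays: without Sham-GA 1 day replicate 1 it was 1 gene and without Sham-GA 3 days replicate 2 it was 3, Psmd5 among them each time.

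The GA effect at 7 days minus that at 1 day was above 0 in 39 of 44 genes, with a median of 0.31, where 51.7% of all genes were above 0. As distances from the genes' medians, the lid mean was 0.17 at 1 day and -0.12 at 7 days in GA, against 0.29 and -0.36 in Sham-GA. The base mean was -0.02 and -0.15 in GA, against 0.21 and -0.32 in Sham-GA. None passed (0% of all genes), with 13 at an unadjusted p under 0.05 (8.26% of all genes), and the largest difference was that of Psmd10 (log2 difference 0.88, SE 0.255, adjusted p = 0.403). The ES effect minus the GA effect was above 0 in 40 genes at 1 day (median 0.38, 50.6% of all genes), in 8 at 3 days (median -0.24, 51.5% of all genes) and in 5 at 7 days (median -0.20, 50.5% of all genes). These differences passed for 0 of the 44 genes on each day, where 0.0554% of all genes passed at 1 day, 0% at 3 days and 0% at 7 days. An unadjusted p under 0.05 was reached by 16 of the 44 at 1 day (13% of all genes), 5 at 3 days (9.47%) and 4 at 7 days (3.14%). The nearest to passing was Psmd10 at 1 day (log2 difference 0.98, SE 0.229, adjusted p = 0.0876), where 3 of 3 ES arrays lay above SCI and 3 of 3 GA arrays below Sham-GA. It passed without GA 1 day replicate 1 (adjusted p = 0.0295). Such opposite separation of ES and GA was found in 5 of the 44 genes at 1 day (1.53% of all genes), 3 at 3 days (0.982%) and 2 at 7 days (0.595%).

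**Figure D2:**
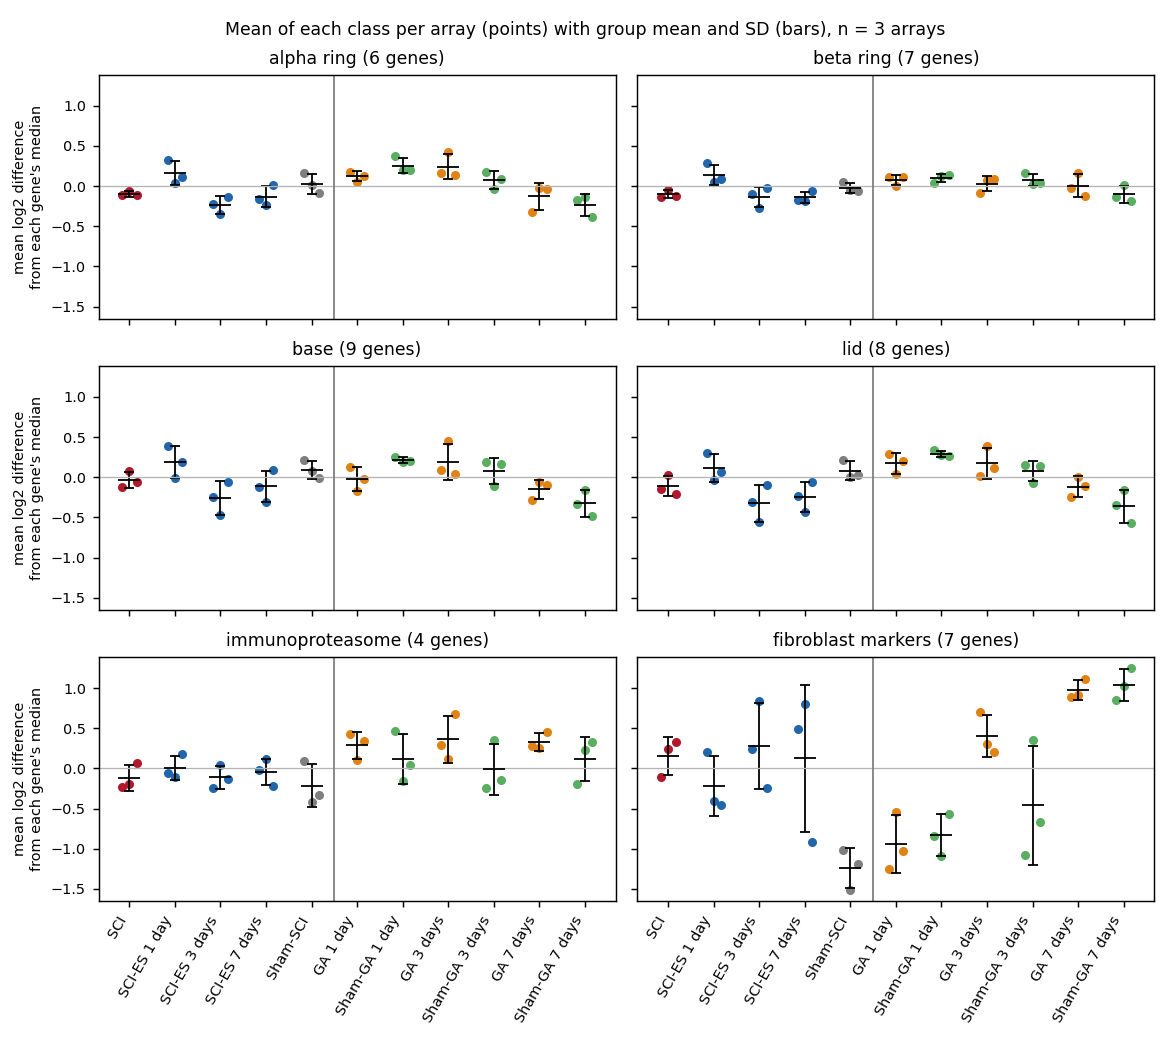
Mean log2 difference of each class from the median of each of its genes, for each array (points) with the group mean and SD (bars, n = 3), for 5 classes and the fibroblast markers, with the SCI groups left of the line and the GA groups right of it. In Sham-GA the lid mean was -0.36 at 7 days and 0.29 at 1 day, the base mean -0.32 at 7 days and 0.21 at 1 day, and the alpha ring mean -0.23 at 7 days and 0.26 at 1 day.

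Most of the differences that passed lay between days in the sham-operated muscles of the overload experiment. The 6 comparisons between days within an arm were added after the data had been seen. In Sham-GA soleus 21 of 44 proteasome genes were lower at 7 days than at 1 day and 0 were higher, where 10.3% of all genes passed in either direction and 5.99% were lower. The median log2 difference was -0.52 over the 44 genes and -0.035 over all genes, 2 of the 44 were above 0 (44.8% of all genes), and 30 had an unadjusted p under 0.05 (24.8% of all genes). By class, 7 of 8 lid genes fell (median -0.67), 5 of 9 base genes (median -0.56), 4 of 6 alpha ring genes (median -0.54) and 2 of 3 base chaperones (median -0.65). In the beta ring 0 of 7 passed (median -0.21), and 0 of 4 immunoproteasome genes did (median -0.00). Of the activators Psme3 alone fell, and of the 3 other symbol matches Psma3l and Psmc3ip fell. The row shared by Psma3l and Psma3, which was left out, had a difference of -0.57. Whether the Psma3l row also detects Psma3 was not tested. In 34 of the 44 genes all 3 arrays at 7 days lay below all 3 at 1 day, against 18.1% of all genes. Whether the classes differ from each other was not tested.

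In the lid, Psmd11 read 9.77, 10.07 and 9.61 in Sham-GA at 7 days, against 10.92, 10.73 and 10.53 at 1 day (-0.92, SE 0.18, adjusted p = 0.00596). That is 1.89 fold lower. Psmd12 read 10.22, 10.51 and 9.97 in Sham-GA at 7 days, against 11.01, 11.07 and 11.06 at 1 day (-0.81, SE 0.184, adjusted p = 0.0121). Psmd14 read 10.01, 10.17 and 9.94 in Sham-GA at 7 days, against 10.87, 10.71 and 10.59 at 1 day (-0.68, SE 0.124, adjusted p = 0.00373). Psmd12 is another scaffold subunit of the lid, Psmd14 is the deubiquitinase that cuts ubiquitin chains off a substrate, and neither had an overlap between days. In the base, Psmc4 read 9.89, 10.69 and 10.29 in Sham-GA at 7 days, against 11.16, 11.01 and 10.98 at 1 day (-0.76, SE 0.198, adjusted p = 0.0239). Psmc6 read 9.84, 9.72 and 9.34 in Sham-GA at 7 days, against 10.53, 10.22 and 10.33 at 1 day (-0.73, SE 0.179, adjusted p = 0.0181). Psmd1 read 10.85, 10.91 and 10.41 in Sham-GA at 7 days, against 11.42, 11.33 and 11.45 at 1 day (-0.68, SE 0.159, adjusted p = 0.0143). Psmc4 and Psmc6 are ATPases of the unfolding ring and Psmd1 is the large scaffold of the base. No array at 7 days reached the lowest array at 1 day in these genes.

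In the alpha ring, Psma1 read 10.12, 10.26 and 9.91 in Sham-GA at 7 days, against 10.86, 10.76 and 10.78 at 1 day (-0.70, SE 0.153, adjusted p = 0.0102). Psma6 read 9.77, 9.92 and 9.46 in Sham-GA at 7 days, against 10.40, 10.29 and 10.26 at 1 day (-0.60, SE 0.14, adjusted p = 0.0143). Psma2 read 8.92, 8.96 and 8.83 in Sham-GA at 7 days, against 9.66, 9.30 and 9.39 at 1 day (-0.54, SE 0.13, adjusted p = 0.016). All are structural subunits of the ring that gates the core, and the days did not overlap in any of them. Among the activators, Psme3 read 10.06, 10.15 and 9.91 in Sham-GA at 7 days, against 10.77, 10.50 and 10.62 at 1 day (-0.59, SE 0.126, adjusted p = 0.00928). Psme3 forms the activator found in the nucleus. Of the base chaperones, Psmd5 read 8.45, 8.56 and 8.20 in Sham-GA at 7 days, against 9.26, 9.02 and 9.01 at 1 day (-0.69, SE 0.128, adjusted p = 0.00428). Psmd10 read 6.97, 7.30 and 7.06 in Sham-GA at 7 days, against 7.96, 7.63 and 7.68 at 1 day (-0.65, SE 0.18, adjusted p = 0.033). The days were apart in all of these genes, and replicate 3 at 7 days was the lowest array in 5 of them. Psma3l read 9.65, 9.91 and 9.75 in Sham-GA at 7 days, against 10.81, 10.44 and 10.58 at 1 day (-0.84, SE 0.14, adjusted p = 0.00237). Psmc3ip read 6.41, 6.45 and 6.02 in Sham-GA at 7 days, against 7.06, 6.87 and 6.95 at 1 day (-0.67, SE 0.154, adjusted p = 0.0131). Psmc3ip encodes a recombination factor of meiosis, and it fell beside the subunit genes although it is no part of the particle.

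**Figure D3:**
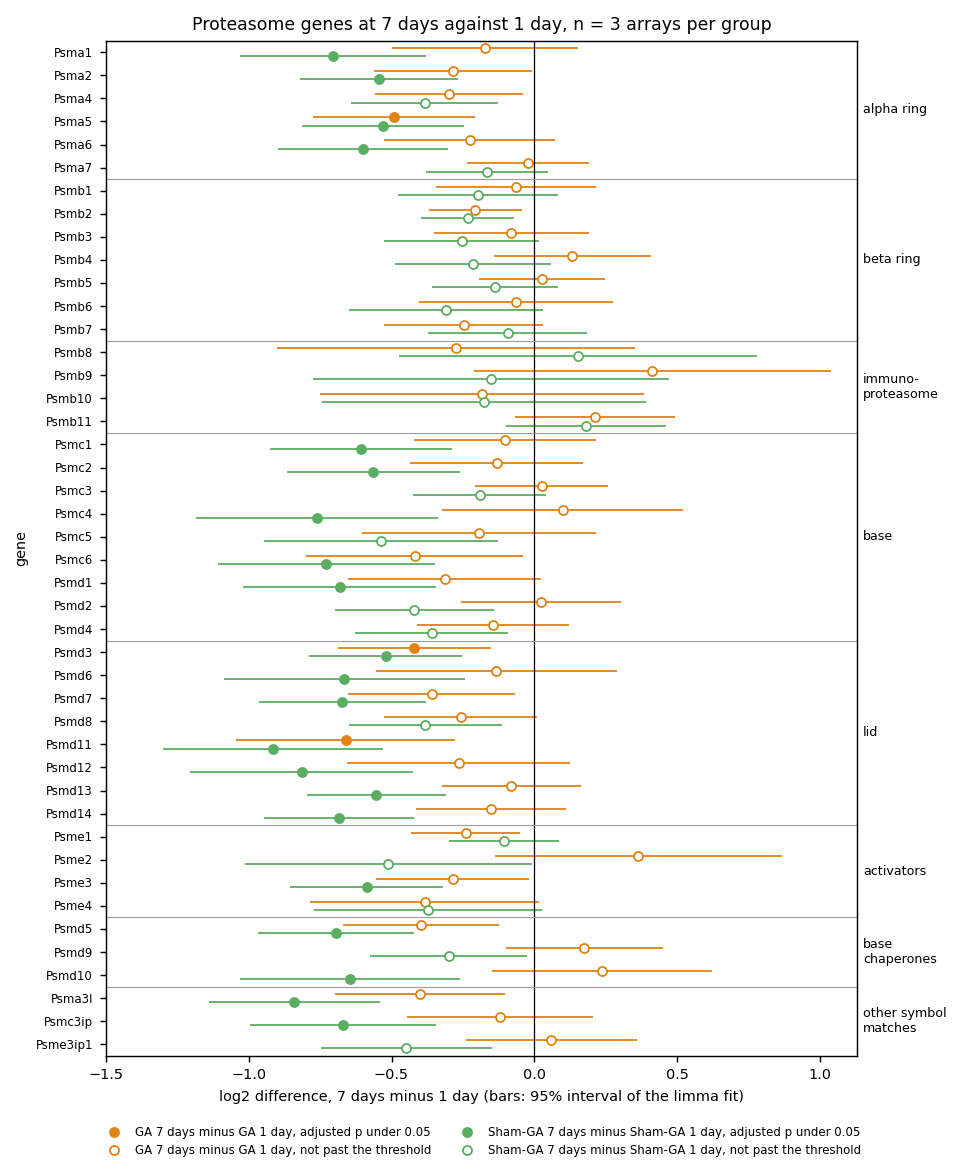
Log2 difference between 7 days and 1 day for each of the 44 genes in GA and in Sham-GA, with 95% intervals and genes that passed marked. In GA 3 genes passed and in Sham-GA 21 did, all of them lower at 7 days.

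In GA soleus 3 of 44 genes passed between 7 days and 1 day, all lower at 7 days, where 12.5% of all genes passed and 5.53% were lower. The median was -0.16 with 11 of 44 above 0 (42.9% of all genes), and 12 had an unadjusted p under 0.05 (26.4% of all genes). Psma5 read 8.34, 8.88 and 8.79 in GA at 7 days, against 9.26, 9.10 and 9.12 at 1 day (-0.49, SE 0.133, adjusted p = 0.0236). Psmd3 read 9.67, 9.87 and 9.61 at 7 days, against 10.23, 9.99 and 10.19 at 1 day (-0.42, SE 0.126, adjusted p = 0.0397), without overlap, as in Psma5. Psmd11 read 10.09, 10.53 and 10.18 at 7 days, against 11.25, 10.52 and 11.01 at 1 day (-0.66, SE 0.18, adjusted p = 0.0243), and 1 array overlapped. All 3 had also fallen in Sham-GA, and they are 100% of the GA list and 14.3% of the Sham-GA list. That the 2 arms differ was tested by the GA effect at 7 days minus that at 1 day, in which no proteasome gene passed. The GA count rested on single arrays: it was 0 without GA 7 days replicate 1, GA 1 day replicate 1 or GA 1 day replicate 3, and 1 without GA 7 days replicate 3.

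At 3 days against 1 day 28 of 44 genes were above 0 in GA (45.9% of all genes, median 0.09), and 5 in Sham-GA (49.3%, median -0.17). None passed by limma in GA (4.01% of all genes, with 4 of the 44 and 19.8% of all genes at an unadjusted p under 0.05) or in Sham-GA (0% of all genes, with 5 of the 44 and 5.43% of all genes at an unadjusted p under 0.05). Among stimulated rats, SCI-ES at 3 days was above SCI-ES at 1 day in 4 of 44 genes (50.3% of all genes), with a median of -0.37, and SCI-ES at 7 days was above 1 day in 7 (53.9%), with a median of -0.29. None passed by limma at either day (0% and 0% of all genes), while 30 of the 44 had an unadjusted p under 0.05 at 3 days (13.1% of all genes) and 19 at 7 days (12.1%). All 3 arrays at 3 days were below all 3 at 1 day in 29 genes, against 9.98% of all genes. Endothelial markers were apart between the same groups, at 0.39 to 0.76 at 3 days, against -0.83 to 0.09 at 1 day, with 4 of 4 above 0 and none passed, and their part was not tested. The lowest adjusted p was 0.206 at 3 days, for Psmd10, at 6.90, 7.19 and 7.27 against 7.77, 7.59 and 7.64 at 1 day (-0.55). Psmd11 had the largest difference at both days (-0.73 and -0.71). Without SCI-ES 1 day replicate 2, 3 genes passed at 3 days.

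The Sham-GA difference between 7 days and 1 day leaned on 1 array, and markers of other cells moved with it. The lid mean read 9.96, 10.15 and 9.73 at 7 days, against 10.65, 10.58 and 10.57 at 1 day, the base mean 9.80, 9.98 and 9.65 against 10.39, 10.32 and 10.34, and the beta ring mean 10.86, 11.01 and 10.81 against 11.04, 11.13 and 11.13. Replicate 3 at 7 days was the lowest of all 33 arrays for 5 of 8 lid genes, and without it 6 of the 44 genes passed: Psma3l, Psmd5, Psmd7, Psmd11, Psmd13 and Psmd14. Without Sham-GA 1 day replicate 1, 13 passed, and with a fit of these 6 arrays alone 6 did. Fibroblast markers were higher at 7 days in 7 of 7 genes, 5 of which rose, where 4.32% of all genes rose (Col1a1 by 2.89, Col3a1 by 2.82, Fap by 2.55 and Lum by 2.24 the most). The mean of that list lay at 0.85 to 1.25 from its genes' medians at 7 days, against -1.09 to -0.57 at 1 day. In GA, 6 fibroblast markers rose between the same days, where 7% of all genes rose, and the list mean lay at 0.89 to 1.12, against -1.25 to -0.54. Macrophage markers rose in 3 of 9 genes in Sham-GA (Adgre1, C1qa and C1qc), and muscle fiber markers passed in 0 of 8, with a median of -0.07. The part of other cells in the proteasome result was not tested.

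No catalytic subunit passed in any comparison. Psmb5 read 11.32, 11.47 and 11.33 in SCI, 12.01, 11.41 and 11.55 after 1 day of ES, 11.37, 11.26 and 11.40 after 3 days, 11.34, 11.29 and 11.48 after 7 days, and 11.44, 11.47 and 11.41 in Sham-SCI. It read 11.36, 11.25 and 11.24 in GA against 11.32, 11.54 and 11.44 in Sham-GA at 1 day, 11.16, 11.24 and 11.49 against 11.42, 11.46 and 11.40 at 3 days, and 11.40, 11.34 and 11.18 against 11.19, 11.37 and 11.33 at 7 days. Psmb5, the chymotrypsin-like site, lay between 11.16 and 12.01, and the highest array was 1 of the 3 taken after 1 day of ES. Psmb6 read 10.70, 10.26 and 10.69 in SCI, 10.94, 11.01 and 10.87 after 1 day of ES, 10.89, 10.58 and 10.96 after 3 days, 10.56, 10.53 and 10.78 after 7 days, and 10.76, 10.75 and 10.62 in Sham-SCI. It read 11.02, 10.78 and 10.91 in GA against 10.76, 11.01 and 11.06 in Sham-GA at 1 day, 10.68, 10.87 and 10.82 against 11.19, 10.79 and 10.96 at 3 days, and 10.77, 11.14 and 10.60 against 10.39, 10.92 and 10.59 at 7 days. In Sham-GA Psmb6 did not pass between 7 days and 1 day (-0.31, SE 0.159, adjusted p = 0.249). Psmb7 read 11.46, 11.57 and 11.59 in SCI, 11.78, 11.63 and 11.60 after 1 day of ES, 11.44, 11.22 and 11.60 after 3 days, 11.38, 11.47 and 11.55 after 7 days, and 11.62, 11.67 and 11.51 in Sham-SCI. It read 11.47, 11.67 and 11.70 in GA against 11.43, 11.59 and 11.58 in Sham-GA at 1 day, 11.41, 11.53 and 11.38 against 11.71, 11.51 and 11.55 at 3 days, and 11.28, 11.53 and 11.29 against 11.71, 11.47 and 11.15 at 7 days. Psmb7, the trypsin-like site, overlapped between GA and Sham-GA on every day, and its 3 arrays after 1 day of ES lay above the 3 SCI arrays (log2 difference 0.13, SE 0.107, adjusted p = 0.826).

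Of their inducible counterparts, Psmb8 alone separated GA from Sham-GA, at 1 day. Psmb8 read 6.39, 6.54 and 7.10 in SCI, 6.31, 6.58 and 6.99 after 1 day of ES, 6.24, 6.55 and 6.74 after 3 days, 6.54, 7.49 and 6.64 after 7 days, and 6.64, 5.92 and 6.13 in Sham-SCI. It read 7.82, 7.11 and 7.46 in GA against 6.97, 6.66 and 6.36 in Sham-GA at 1 day, 7.29, 6.64 and 7.55 against 6.46, 7.13 and 6.45 at 3 days, and 7.19, 6.86 and 7.51 against 6.30, 7.29 and 6.85 at 7 days. At 1 day the 3 GA arrays of Psmb8 lay above the 3 Sham-GA arrays (log2 difference 0.80, SE 0.295, adjusted p = 0.258, 95% interval 0.17 to 1.43), at 3 days they overlapped (log2 difference 0.48, SE 0.295, adjusted p = 0.384) and at 7 days also (log2 difference 0.37, SE 0.295, adjusted p = 0.999). Psmb9 read 7.56, 7.78 and 7.94 in SCI, 8.01, 7.72 and 8.08 after 1 day of ES, 7.64, 8.45 and 7.59 after 3 days, 8.02, 7.58 and 7.69 after 7 days, and 8.41, 7.56 and 7.60 in Sham-SCI. It read 8.15, 8.03 and 8.34 in GA against 9.09, 7.98 and 8.43 in Sham-GA at 1 day, 8.57, 8.78 and 8.95 against 7.63, 8.66 and 8.11 at 3 days, and 8.31, 8.64 and 8.82 against 7.87, 8.33 and 8.83 at 7 days. GA and Sham-GA overlapped in Psmb9 on every day, and at 3 days, its largest difference, 1 Sham-GA array fell inside the GA range (log2 difference 0.63, SE 0.293, adjusted p = 0.302). Psmb10 read 7.63, 7.45 and 7.75 in SCI, 7.63, 7.68 and 7.82 after 1 day of ES, 7.72, 8.01 and 7.46 after 3 days, 7.78, 7.99 and 7.41 after 7 days, and 7.88, 7.28 and 7.51 in Sham-SCI. It read 8.33, 8.15 and 8.12 in GA against 8.50, 7.58 and 7.98 in Sham-GA at 1 day, 7.99, 7.76 and 8.75 against 7.37, 8.28 and 7.51 at 3 days, and 7.88, 8.01 and 8.15 against 7.72, 7.84 and 7.97 at 7 days. Psmb10 also overlapped at 3 days (log2 difference 0.45, SE 0.267, adjusted p = 0.373). The median of the 4 immunoproteasome genes was 0.47 at 3 days of GA, and none passed. Macrophage markers were at 0.98 to 1.14 from their medians in GA at 3 days, against -0.52 to 0.91 in Sham-GA, and neutrophil markers at 1.19 to 2.02 in GA at 1 day, against -0.05 to 1.54. Their part in the immunoproteasome values was not tested.

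**Figure D4:**
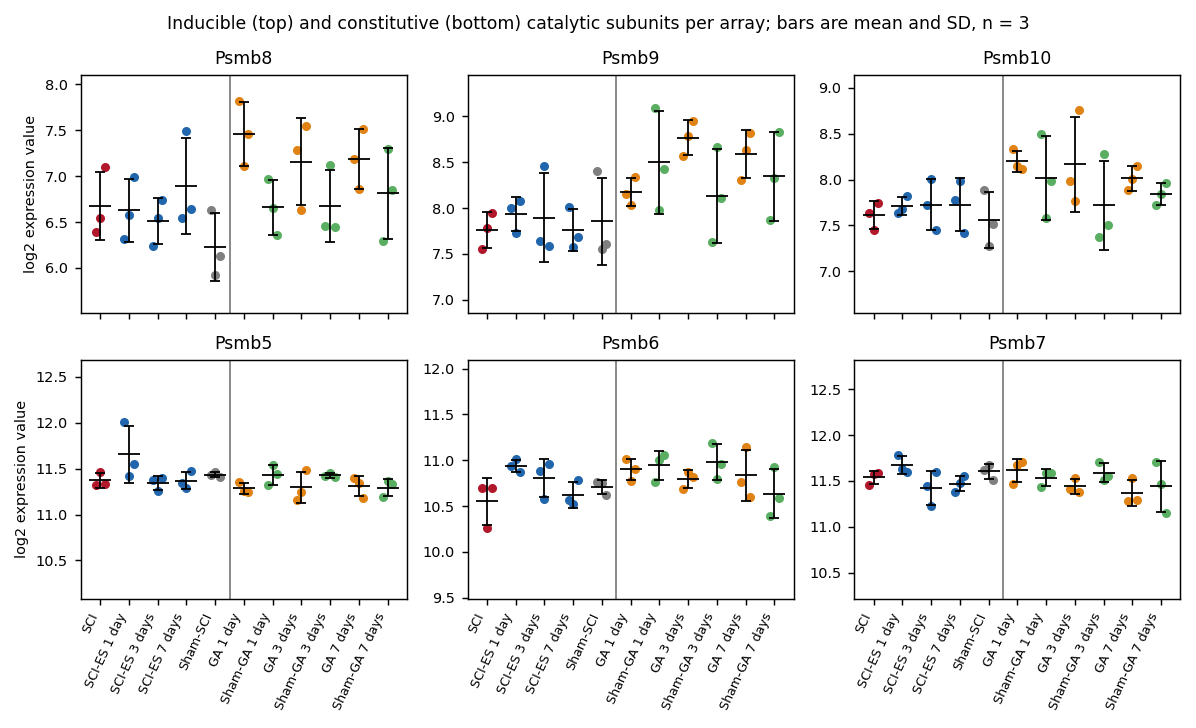
Log2 values of Psmb5, Psmb6 and Psmb7 and of their inducible counterparts Psmb8, Psmb9 and Psmb10 on each array (points), with the group mean and SD (bars, n = 3). Psmb8 lies at 7.11 to 7.82 in GA at 1 day and at 6.36 to 6.97 in Sham-GA, while Psmb5 lies between 11.16 and 12.01 throughout.

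No activator passed between conditions. Psme1 read 9.92, 9.91 and 9.92 in SCI, 9.84, 9.94 and 9.94 after 1 day of ES, 10.12, 10.23 and 9.93 after 3 days, 10.00, 10.08 and 10.40 after 7 days, and 10.18, 9.96 and 9.95 in Sham-SCI. It read 10.06, 10.19 and 10.05 in GA against 9.96, 10.02 and 10.27 in Sham-GA at 1 day, 10.00, 10.02 and 10.01 against 10.07, 10.07 and 10.06 at 3 days, and 9.85, 9.92 and 9.80 against 9.98, 9.96 and 10.00 at 7 days. Psme1 lay below Sham-GA on all 3 GA arrays at 3 days, by a small margin (log2 difference -0.05, SE 0.0898, adjusted p = 0.751), and at 7 days (log2 difference -0.12, SE 0.0898, adjusted p = 0.999). It lay above SCI on all 3 arrays after 3 days of ES (log2 difference 0.18, SE 0.118, adjusted p = 1) and after 7 days (log2 difference 0.24, SE 0.118, adjusted p = 1). Psme2 read 10.55, 11.10 and 10.94 in SCI, 11.10, 10.69 and 11.07 after 1 day of ES, 10.59, 10.84 and 10.97 after 3 days, 10.93, 10.91 and 11.75 after 7 days, and 11.09, 10.78 and 10.73 in Sham-SCI. It read 11.31, 10.36 and 10.75 in GA against 11.53, 11.04 and 11.42 in Sham-GA at 1 day, 11.16, 11.17 and 11.25 against 10.99, 11.13 and 11.11 at 3 days, and 11.10, 11.10 and 11.32 against 10.23, 11.20 and 11.03 at 7 days. Psme2 was the activator with the largest difference at 1 day of GA (log2 difference -0.52, SE 0.236, adjusted p = 0.347), and the groups overlapped. At 3 days its 3 GA arrays lay above the 3 Sham-GA arrays (log2 difference 0.12, SE 0.236, adjusted p = 0.793), and at 7 days the groups overlapped. Psme4 read 11.50, 11.29 and 11.19 in SCI, 11.32, 11.32 and 11.19 after 1 day of ES, 11.04, 10.88 and 11.17 after 3 days, 11.24, 10.95 and 11.32 after 7 days, and 11.24, 11.39 and 11.30 in Sham-SCI. It read 11.05, 11.63 and 11.52 in GA against 11.13, 11.42 and 11.61 in Sham-GA at 1 day, 11.16, 11.60 and 10.97 against 11.31, 11.06 and 11.54 at 3 days, and 11.09, 10.95 and 11.02 against 11.11, 11.10 and 10.83 at 7 days. Psme4, a large activator of the core, overlapped between GA and Sham-GA on every day, and its 3 arrays after 3 days of ES lay below the 3 SCI arrays (log2 difference -0.29, SE 0.121, adjusted p = 1).

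Genes of the regulatory particle and the alpha ring also varied together among animals of 1 group. Each array's deviation from its group mean was correlated between genes over the 33 arrays. These correlations are descriptions: the points share the array, its normalization and the cell makeup of the muscle. The median r was 0.76 over 36 pairs within the base, 0.71 over 28 pairs within the lid, 0.70 over 72 pairs between base and lid, and 0.63 over 15 pairs within the alpha ring. It was 0.35 within the beta ring, 0.23 within the immunoproteasome and 0.07 within the activators. Between immunoproteasome and base it was -0.12. Psmb11, with its low mean of 4.62, counts in both immunoproteasome values. The 6 pairs within the immunoproteasome ran from -0.10 to 0.73. The mean of Psmb8, Psmb9 and Psmb10 went instead with the list of antigen processing genes and interferon gamma targets (r = 0.89, and 0.92 over the 15 SCI arrays and 0.89 over the 18 GA arrays), with T cell markers (0.86) and with macrophage markers (0.77). This mean also had r = 0.56 with endothelial markers, 0.48 with fibroblast markers and 0.38 with neutrophil markers. With neutrophil markers r was -0.25 over the SCI arrays and 0.60 over the GA arrays. The mean of the inducible subunits went against the fiber markers, at -0.56 over all arrays, -0.40 in the SCI experiment and -0.88 in the GA experiment. The mean of alpha ring, base and lid had r = -0.25 with the inducible subunits, -0.48 with fibroblast markers and -0.60 with endothelial markers.

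**Figure D5:**
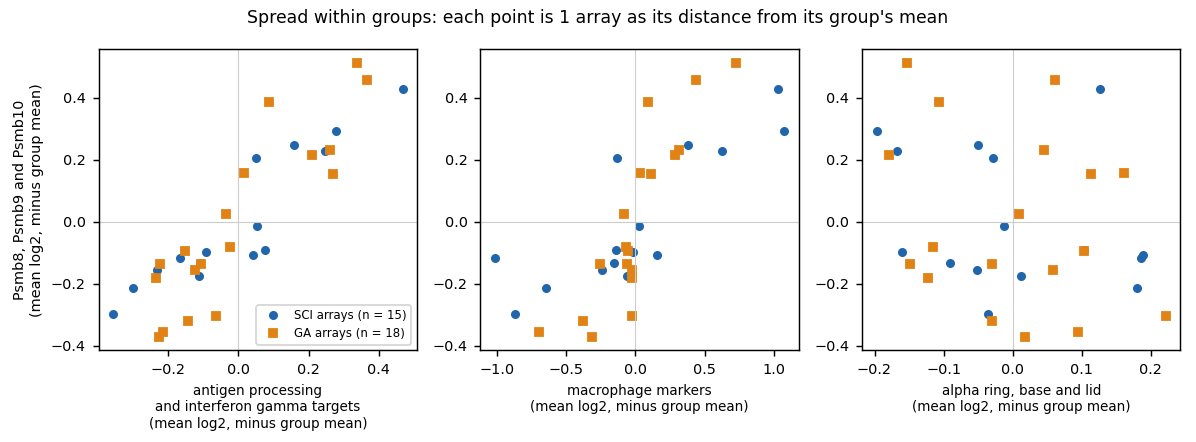
Mean log2 value of Psmb8, Psmb9 and Psmb10 against that of the antigen processing list, the macrophage markers and the alpha ring, base and lid genes, each as the deviation from its group mean, with 1 point per array and n = 33. The inducible subunits lie along the antigen processing list (r = 0.89) and the macrophage markers (r = 0.77), and not along the alpha ring, base and lid genes (r = -0.25).

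Other genes were ranked by the correlation of the same deviations with the mean of alpha ring, base and lid genes, among 14409 genes. The nearest were Nsfl1c, a cofactor of the p97 ATPase (r = 0.90), Usp14, the deubiquitinase bound to the proteasome (0.90), Mob4 (0.89) and Pole4 (0.89), and Vcp, which is p97 itself and pulls ubiquitinated proteins out of complexes, was the seventh (0.87). They were chosen after their values were seen. The list of p97 and shuttle factors had a median r of 0.70 and the list of other proteasome parts and assembly factors of 0.69, where the ubiquitin ligases of muscle atrophy had 0.21 and all other genes 0.03.

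Other genes of the pathway were counted between 7 days and 1 day in Sham-GA, where 5.99% of all genes fell. Of 9 other proteasome parts and assembly factors 9 were below 0 and 6 fell (median -0.51), with the largest falls in Psmg2, which starts alpha ring assembly (-0.95, adjusted p = 0.00152), Usp14 (-0.66), Txnl1, a thioredoxin bound to the lid (-0.60), and the ubiquitin receptor Adrm1 (-0.54). Of 8 genes that control or accompany proteasome transcription 3 fell: Zfand2a, a stress-induced proteasome partner (-0.98), Ddi2, the protease that activates Nrf1 (-0.72), and the autophagy receptor Sqstm1 (-0.68). Of 10 p97 and shuttle genes 4 fell: Ufd1 (-0.66), Nploc4 (-0.47), the shuttle Ubqln1 (-0.42) and Vcp (-0.42). Among 8 ubiquitin and activation genes only the conjugating enzyme Ube2d3 fell (-0.32), among 13 atrophy ligases and deubiquitinases only Fbxo30 (-0.75), and among 14 antigen processing genes none passed. The counts of 1 gene in these lists are near the share over all genes. In GA between the same days, where 5.53% of all genes fell, Txnl1 (-0.51), Zfand2a (-1.07), Ube2d3 (-0.43) and the ligases Fbxo30 (-0.74) and Traf6 (-0.39) fell. At 3 days against 1 day of GA Zfand2a fell (-0.92), as did 1.25% of all genes. Between conditions, Ubqln4, another shuttle, was lower (-0.81, adjusted p = 0.047) and the interferon-induced chemokine Cxcl9 higher (1.10, adjusted p = 0.0478) in SCI-ES at 7 days than in Sham-SCI, where 0.553% of all genes were lower and 0.242% higher, and no gene of these lists passed in the other planned comparisons.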

How the data were processed

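The authors deposited log2 values, made by RMA in the R package oligo (version not given in the sources used here), with baseline subtraction, quantile normalization and median polish, with 1 row per transcript cluster. Of 29214 rows, 15310 carry 1 gene symbol, 323 several and 13581 none, and rows of the last 2 kinds were left out. The brightest row of a gene was used. The paper names a rat exon array, and the probe table that names the rows is for a gene array. A description that comes with the series gives 2 days where the labels give 3, and ablation on both sides where the methods give the left, and the labels' days were used. RNA integrity was above 8 in all samples per the paper's methods. Arrays have no depth, and their number limits the precision.

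Group means were fitted with limma 3.58.1 (lmFit and eBayes, R 4.3.3) on the 15 SCI arrays and the 18 GA arrays, and on all 33 for ES minus GA, over genes with a mean of at least 3 (14456, 14451 and 14453 genes). A gene passed at a Benjamini-Hochberg adjusted p under 0.05, with no fold minimum. There were 13 planned comparisons, and 6 between days were added after the data were seen. The members and lists were chosen with earlier results of these data known. Values on every array are given for the catalytic and inducible subunits, Psme1, Psme2 and Psme4, and for up to 3 genes per class with the largest change among those that passed. Other genes named are ends of a range, up to 4 genes per list that passed, or genes chosen after their values were seen. Alternatives were other filters, normalizations, arrays in the fit, a trended prior, a minimum of 1.5 fold, the mean of rows, a block on the replicate number, and fits that left 1 array out. Promoter windows are from RefSeq (GRCr8). Figures were drawn with matplotlib 3.10.9 in Python 3.11.15, from tables read with pandas 2.3.3 and numpy 2.4.6.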

Additional observations from a re-analysis of the deposited data

Results flagged for a closer look

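In 10 cases every array of ES lay on one side of SCI and every array of GA on the opposite side of Sham-GA on the same day (5 of the 44 genes and 1.53% of all genes at 1 day, 3 and 0.982% at 3 days, 2 and 0.595% at 7 days), and in none of them did the ES effect minus the GA effect pass the test by limma. At 1 day these were Psmd10 (log2 difference of effects 0.98, adjusted p = 0.0876), Psmc3ip (0.91, adjusted p = 0.109), Psmd12 (0.51, adjusted p = 0.361), Psmd2 (0.51, adjusted p = 0.199) and Psma6 (0.42, adjusted p = 0.268), each higher in ES than in SCI and lower in GA than in Sham-GA. At 3 days Psma3l (-0.56, adjusted p = 0.477) and Psmb2 (-0.25, adjusted p = 0.518) were lower in ES and higher in GA, and Psme1 (0.23, adjusted p = 0.556) went the other way. At 7 days Psmd14 (-0.64, adjusted p = 0.999) was lower in ES and higher in GA, and Psme1 (0.36, adjusted p = 0.999) higher in ES and lower in GA. The same SCI arrays stand behind the ES effects of all 3 days.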

How the results depend on the processing

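The count of 21 genes between 7 days and 1 day in Sham-GA ranged from 6 to 23 when 1 array was left out, was 6 with only the arrays of the groups compared, 19 with the replicate number as a block, and 16 to 24 under the other alternatives. The count of 3 in GA between the same days ranged from 0 to 4 when 1 array was left out, and was 5 after quantile normalization again, 1 with a minimum of 1.5 fold, 1 with only the arrays of the groups compared and 2 with the replicate block. With only the arrays of the groups compared, 0 of the 3 genes Psma5, Psmd3 and Psmd11 stayed past the threshold, and the 1 gene counted was another. One fit of all 33 arrays gave 1 gene at 3 days against 1 day of GA, Psmd10. Leaving out 1 array gave 0 to 3 genes for the mean GA effect, 0 to 1 for ES minus GA at 1 day and 0 to 3 for SCI-ES at 3 days against 1 day. Every other count of 0 stayed 0 under the alternatives that were run. For the 41 values of single genes, 640 of 726 alternatives kept direction and side of the threshold, 82 lost the call, 4 gained it and 0 turned the direction. Of 75 pairs of arrays with the same replicate number, 25 correlated over 0.1 (median -0.06, from -0.72 to 0.67). No pairs of unlike number were set beside them, so these values cannot decide whether animals of the same number deviated together. The block was used only as an alternative. The signal gives no depth, and 3 arrays per group set the precision, with a median half-width of the 95% interval of 0.297 on the log2 scale in the SCI experiment and 0.288 in the GA experiment.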
